A study of Homo sapiens with 17 samples.

Results

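Transcript levels of 10 genes of fatty acid synthesis and lipid storage were followed in Ishikawa cells, an endometrial epithelial adenocarcinoma line, among the 60662 genes of one RNA-seq count table. The members were fixed by name: SREBF1, ACLY, ACACA, FASN, ELOVL6, SCD, FADS1, FADS2, CPT1A and PLIN2. The 17 libraries fell into 6 groups, each of cells cultured for 24 h. There were 3 untreated control libraries, 2 with a vehicle the labels call Nap and do not explain, 3 with Nap and the ethanol vehicle (the labels give 70% EtOH), and 3 with Nap and progesterone (P4). The P4 dose differs between the sources and is not given here, and the labels of the P4 libraries name no ethanol. A further 6 libraries involved recombinant human PSAT1, phosphoserine aminotransferase 1, an enzyme of serine synthesis. For these 6 the columns of the count table carry the names PSAT1 (3) and PSAT1_P4 (3), while the sample titles and treatment labels assign the same libraries the other way round. They are called column PSAT1 and column PSAT1_P4 below, and every direction drawn between them holds for the column names and turns around if the titles are right. A single cancer line in charcoal-stripped serum stands in here for the endometrial epithelium.

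Cells build fatty acids from citrate. ATP citrate lyase (ACLY) releases acetyl-CoA, acetyl-CoA carboxylase (ACACA) turns it into malonyl-CoA in the committed step, and fatty acid synthase (FASN) joins these units into palmitate. Palmitate is then lengthened by ELOVL6 and given double bonds by the desaturases SCD, FADS1 and FADS2, and SREBF1 encodes SREBP-1, the transcription factor known to switch on most of these enzymes. CPT1A takes fatty acids into mitochondria for oxidation, and PLIN2 coats the lipid droplets in which they are stored as triglyceride. Endometrial glands are known to accumulate glycogen and lipid in the progesterone phase of the cycle.

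Per length of transcript, SCD had the highest level of the 10 genes in untreated control cells, at 109.9 ± 9.7 RPKM (CPM, the count scaled to library size by TMM, divided by exon kilobases; SD, n = 3). ACLY at 39.6 ± 2.5, FASN at 37.6 ± 3.7 and FADS2 at 33.2 ± 4.3 RPKM followed, and neighbours among these 3 lay within their spread. FADS1 was at 24.7 ± 2.7, ACACA at 18.9 ± 0.81, CPT1A at 16.1 ± 0.28, ELOVL6 at 11.4 ± 0.20 and SREBF1 at 9.83 ± 0.29 RPKM. PLIN2 stood apart at 0.019 RPKM. It had 18 reads over all 17 libraries, none in 7 of them and at most 5 in the others.

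The start sites of 4 of these genes are shown because their levels moved differently, as given further on: SCD rose with P4, ELOVL6 and FADS2 fell, and FADS1, which shares a start region with FADS2, was not called with TMM scaling. Each run is the RefSeq promoter window (build GRCh38.p14) of 250 bases before and 50 after the first base, on the gene's own strand. Capitals mark the letters CCAAT or GGGCGG on either strand (as ATTGG or CCGCCC where reversed).
SCD, chr10:100346983-100347282, plus strand: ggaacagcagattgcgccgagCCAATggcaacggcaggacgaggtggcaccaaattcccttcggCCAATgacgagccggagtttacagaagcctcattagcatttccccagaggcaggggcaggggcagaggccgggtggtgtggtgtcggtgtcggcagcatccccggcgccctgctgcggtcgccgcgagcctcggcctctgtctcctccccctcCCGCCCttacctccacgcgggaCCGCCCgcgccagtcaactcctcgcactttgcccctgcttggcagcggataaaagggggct
ELOVL6, chr4:110198566-110198865, minus strand: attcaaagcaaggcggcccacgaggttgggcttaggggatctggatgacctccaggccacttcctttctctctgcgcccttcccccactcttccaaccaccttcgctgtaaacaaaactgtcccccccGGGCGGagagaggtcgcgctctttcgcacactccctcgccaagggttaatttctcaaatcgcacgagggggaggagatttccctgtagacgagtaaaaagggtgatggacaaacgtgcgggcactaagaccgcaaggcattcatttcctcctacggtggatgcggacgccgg
FADS1, chr11:61816954-61817253, minus strand: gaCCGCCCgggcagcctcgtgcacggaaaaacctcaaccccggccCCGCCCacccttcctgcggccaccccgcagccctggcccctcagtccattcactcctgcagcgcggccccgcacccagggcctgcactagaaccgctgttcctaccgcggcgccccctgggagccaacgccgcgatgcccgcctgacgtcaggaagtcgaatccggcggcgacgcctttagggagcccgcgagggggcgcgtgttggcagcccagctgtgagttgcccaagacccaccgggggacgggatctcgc
FADS2, chr11:61816154-61816453, plus strand: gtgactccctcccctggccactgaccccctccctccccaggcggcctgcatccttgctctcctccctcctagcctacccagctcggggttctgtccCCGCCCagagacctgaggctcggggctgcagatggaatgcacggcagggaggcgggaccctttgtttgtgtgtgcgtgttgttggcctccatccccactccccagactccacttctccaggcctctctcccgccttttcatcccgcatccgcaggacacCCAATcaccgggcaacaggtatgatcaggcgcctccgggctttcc
The FADS1 start lies 599 bases to the right of this FADS2 start and 800 bases to the right of a second one. The genes run in opposite directions, and 490 bases of their exons in GENCODE 29 overlap. The strand setting of the counting is not given in the sources used here, so reads from that stretch cannot be assigned to either gene with certainty. The same holds for 556 exon bases that SREBF1 shares with RAI1 and for 156 that ACLY shares with AC125257.2.

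In 13 windows of 9 members (FASN has no entry in the table), 4 motifs were searched on both strands. TCACNCCAC, a core of the SREBP element, was in 0 of 13 windows and in 1.13% of all 35116 windows of the same length. CACGTG, an E-box, was in 1, that of PLIN2, against 7.26% of all windows. CCAAT was in 6 of 13 (ACACA, ACLY, FADS2 and SCD) and in 34.6% of all windows. GGGCGG was in 10 of 13 (ACACA, ACLY, ELOVL6, FADS1, FADS2, PLIN2, SCD and SREBF1) and in 45.0%. The windows are not all separate: those of ACLY overlap, and so do those of FADS2, so the same letters count more than once. ACACA has several windows. In the SCD window CCAAT stood at 229 and 186 bases before the first base, and in the FADS2 window once, 5 bases after it. The ELOVL6 and FADS1 windows held no CCAAT. A match describes the letters of the window only.

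Read totals ran from 4999521 (vehicle EtOH replicate 1) to 19704493 (control replicate 2), and counting error of the 9 expressed members was small, since each had at least 323 reads in every library. The epithelial markers EPCAM, CDH1, KRT8, KRT18, KRT19 and CLDN4 were expressed throughout, EPCAM at 172 to 216 CPM. Their summed level was 1252 to 1262 CPM with vehicle EtOH and 966 to 1109 with P4. KRT8, KRT18, KRT19 and CLDN4 were called lower with P4 (log2 fold changes -0.70, -0.34, -0.35 and -1.42). CDH1 was called higher (0.24, edgeR adjusted p = 0.018) and EPCAM was not called (0.07, adjusted p = 0.38). Of 6 stromal markers the summed level was 343 to 358 CPM with vehicle EtOH and 127 to 179 with P4. COL1A2, a collagen typical of stroma, was expressed throughout, at 252 to 278 and 55.2 to 113 CPM in these groups, while DCN was at 0 to 0.16 CPM in all libraries. COL1A2 and COL1A1 were called lower with P4 (log2 fold changes -1.67 and -0.44, edgeR adjusted p = 0.0014 and 0.0045). COL3A1, at 41.8 to 58.1 and 45.2 to 53.2 CPM, was not called (-0.14, adjusted p = 0.31). DCN, LUM and PDGFRB were too low to be tested. The 4 immune markers summed to at most 1.55 CPM, the 3 endothelial to at most 1.60 and the 3 adipocyte markers to at most 0.96, with ADIPOQ at 0 to 0.10. PGR, the progesterone receptor, was at 102 to 117 CPM in control, 50.0 to 61.9 with vehicle EtOH and 18.4 to 27.6 with P4, and with ESR1 it summed to 143 to 152 and 82.9 to 109 CPM in the latter groups. The part of these markers in the results below was not tested. In bulk RNA, fewer cells with a transcript and less of it per cell cannot be told apart.

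**Figure D1:**
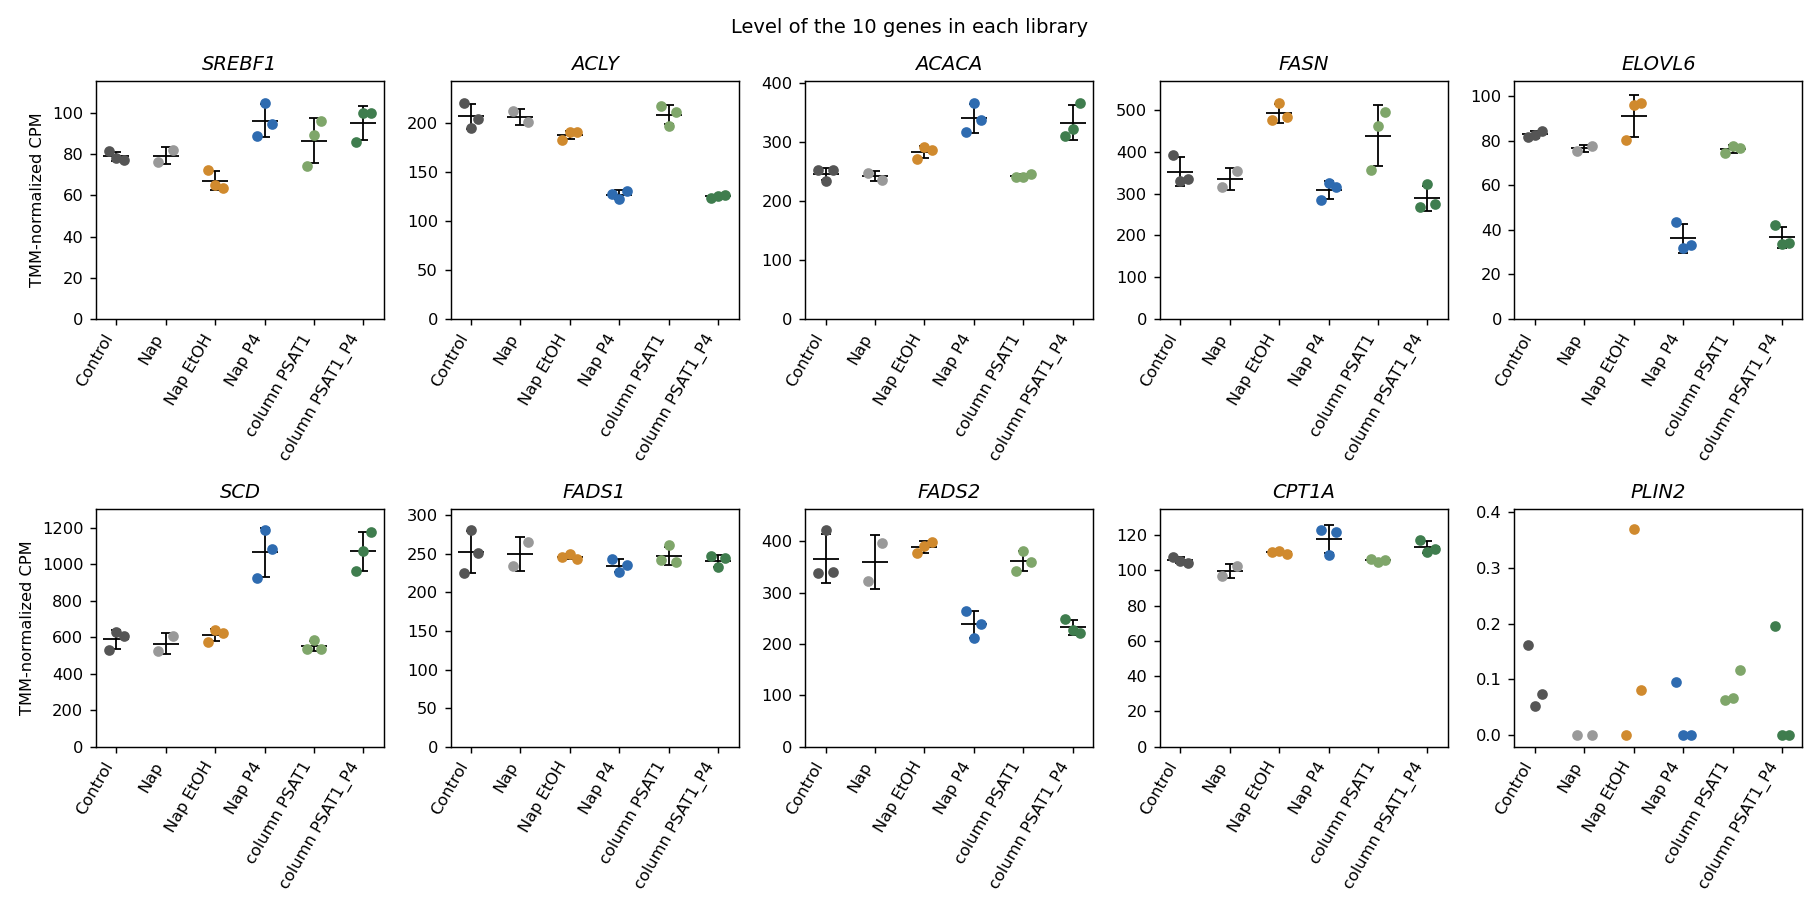
Level of each gene in each of the 17 libraries, in TMM-normalized CPM (vertical axis from 0), by group (horizontal axis); points are libraries and black bars mean ± SD, left out for PLIN2. ELOVL6, ACLY and FADS2 are lower and SCD higher in all 3 Nap P4 libraries than in all 3 Nap EtOH libraries, and PLIN2 stays under 0.37 CPM.

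The main comparison asked which of these transcripts P4 changed against vehicle EtOH. With 9 of the 10 members above the low-count filter, 7 were called at an adjusted p under 0.05, 3 of them higher (SREBF1, ACACA and SCD) and 4 lower (ACLY, FASN, ELOVL6 and FADS2). The largest of these changes were a 2.57-fold lower ELOVL6 and a 1.72-fold higher SCD. Of all 16540 genes tested, 53.0% were called, 26.6% higher and 26.5% lower. The groups did not overlap for 8 of 9 members, and for 60.3% of all genes. The median log2 fold change of the members was -0.08 and that of all genes -0.01.

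SREBF1, the regulator, was at 72.5, 65.1 and 63.6 CPM with vehicle EtOH and at 89.0, 105 and 94.8 CPM with P4. All 3 P4 libraries were above all 3 vehicle libraries, a log2 fold change of 0.52 ± 0.081 (SE; 1.43-fold; edgeR adjusted p = 0.00019; n = 3 and 3 here and in the values that follow). The untreated controls, at 81.5, 78.3 and 76.9 CPM, lay between both groups, and against them the log2 difference of P4 was 0.26 (adjusted p = 0.022). The count covers all SREBF1 transcripts together, and does not separate the SREBP-1a from the SREBP-1c form.

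ACLY fell from 182, 190.0 and 190.0 CPM with vehicle EtOH to 127, 122 and 131 CPM with P4. The log2 fold change was -0.58 ± 0.062 (adjusted p = 9.4e-06), and against untreated control it was -0.73. ACACA, the next enzyme, moved the other way, from 271, 292 and 287 to 317, 366 and 338 CPM. The change was 0.25 ± 0.068 on the log2 scale (1.19-fold higher, adjusted p = 0.0079), and 0.44 against untreated control and 0.47 against Nap.

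FASN was at 476, 518 and 483 CPM with vehicle EtOH and at 285, 326 and 316 CPM with P4, a log2 fold change of -0.69 ± 0.068 (1.61-fold lower, adjusted p = 5e-06). The untreated controls had 393, 329 and 335 CPM and the Nap libraries 316 and 353 CPM, so the P4 values were close to theirs and the vehicle EtOH values stood above all other libraries of these 4 groups. With untreated control as the reference the log2 fold change of FASN was -0.21 (adjusted p = 0.073) and with Nap it was -0.15 (adjusted p = 0.20), neither of which passed. The call on FASN therefore rests on the ethanol vehicle as the reference. The other 6 called members passed against each of these references too, and in the same direction.

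ELOVL6, which lengthens palmitate to stearate, showed the largest change of the members. Its level was 80.3, 96.3 and 97.2 CPM with vehicle EtOH and 43.6, 31.9 and 33.2 CPM with P4, a log2 fold change of -1.36 ± 0.12 (adjusted p = 1.8e-06). In untreated control it was 81.6, 82.8 and 84.5 CPM, and the log2 change against control was -1.22.

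SCD, the desaturase that makes oleate, was at 574, 639 and 623 CPM with vehicle EtOH and at 925, 1187 and 1085 CPM with P4. The log2 fold change was 0.79 ± 0.084 (1.72-fold higher, adjusted p = 9.8e-06), with every P4 library above every library of the control and vehicle groups. FADS2, the delta-6 desaturase of polyunsaturated fatty acids, fell from 377, 390.1 and 399 to 265, 211 and 239 CPM, by 0.72 ± 0.080 on the log2 scale (1.65-fold lower, adjusted p = 1.3e-05).

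FADS1, the delta-5 desaturase, had 246, 249.97 and 243 CPM with vehicle EtOH and 243, 226 and 236 CPM with P4. These groups just failed to overlap, yet the log2 fold change of -0.08 (95% interval -0.21 to 0.05) did not pass (adjusted p = 0.27). Under upper-quartile scaling, which shifted the median of all genes to -0.10, it was -0.17 with an adjusted p of 0.034. Whether the changes of FADS1 and FADS2, neighbours on opposite strands, differ from each other was not tested. CPT1A had 111, 111 and 109.6 CPM with vehicle EtOH and 123, 109 and 122 CPM with P4, and its log2 fold change of 0.08 (95% interval -0.07 to 0.23) did not pass either (adjusted p = 0.34). Its sign turned under upper-quartile scaling, to -0.01.

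PLIN2 could not be tested. It had 0, 5 and 1 reads with vehicle EtOH, 1, 0 and 0 with P4, 3, 1 and 1 in control, 0 in both Nap libraries, 1, 1 and 2 in the column PSAT1 and 2, 0 and 0 in the column PSAT1_P4 libraries. At these depths, 3 reads correspond to 0.15 to 0.60 CPM. The gene lies at 19108375-19149290 of chromosome 9 on GRCh38 (minus strand), and the protein-coding genes on both sides were counted well in the same libraries: HAUS6 at 56.4 to 84.1 CPM and DENND4C at 86.0 to 171 CPM. No other gene overlaps its exons in GENCODE 29, but the reads were counted with GENCODE 31, where this was not checked. The values say only how many reads the deposited table assigns to PLIN2.

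The comparison of vehicle EtOH with untreated control tested the vehicle itself. Of the 9 members 3 were called, FASN and ACACA higher and SREBF1 lower, against 22.6% of 16673 genes (11.9% higher, 10.7% lower). FASN rose by a log2 fold change of 0.48 ± 0.078 (1.40-fold, adjusted p = 0.00019) and kept its call whichever library was left out. ACACA was 0.20 ± 0.070 higher (control 252, 234 and 252 CPM, adjusted p = 0.039), and its call was lost when any library but control replicate 3 was left out (adjusted p 0.057 to 0.20). SREBF1 was lower by -0.24 ± 0.076 on the log2 scale (adjusted p = 0.024), a call lost without control replicate 1 (adjusted p = 0.067), vehicle EtOH replicate 2 (0.13) or vehicle EtOH replicate 3 (0.16). The SREBF1 call was also lost with all 17 libraries in one fit (adjusted p = 0.051), and the ACACA call without the low-count filter (adjusted p = 0.12). SREBF1 and FASN thus differed between vehicle and control in the direction opposite to their difference between P4 and vehicle, in comparisons that share the vehicle EtOH libraries. ACLY, SCD, ELOVL6, FADS1, FADS2 and CPT1A were not called, with log2 fold changes from -0.14 (ACLY, adjusted p = 0.17) to 0.15 (ELOVL6, adjusted p = 0.17). The intervals of these 6 reached from -0.28 to 0.31. Without control replicate 2, ACLY (-0.18, adjusted p = 0.045) and FADS2 (0.20, adjusted p = 0.023) were called too.

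Against untreated control, Nap alone gave no called member and no called gene (0.0% of 17166). At an unadjusted p under 0.05 there were 217 genes, and DESeq2 called 1. The members' log2 fold changes lay between -0.11 and 0.01, and their 95% intervals within -0.29 and 0.22.

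**Figure D2:**
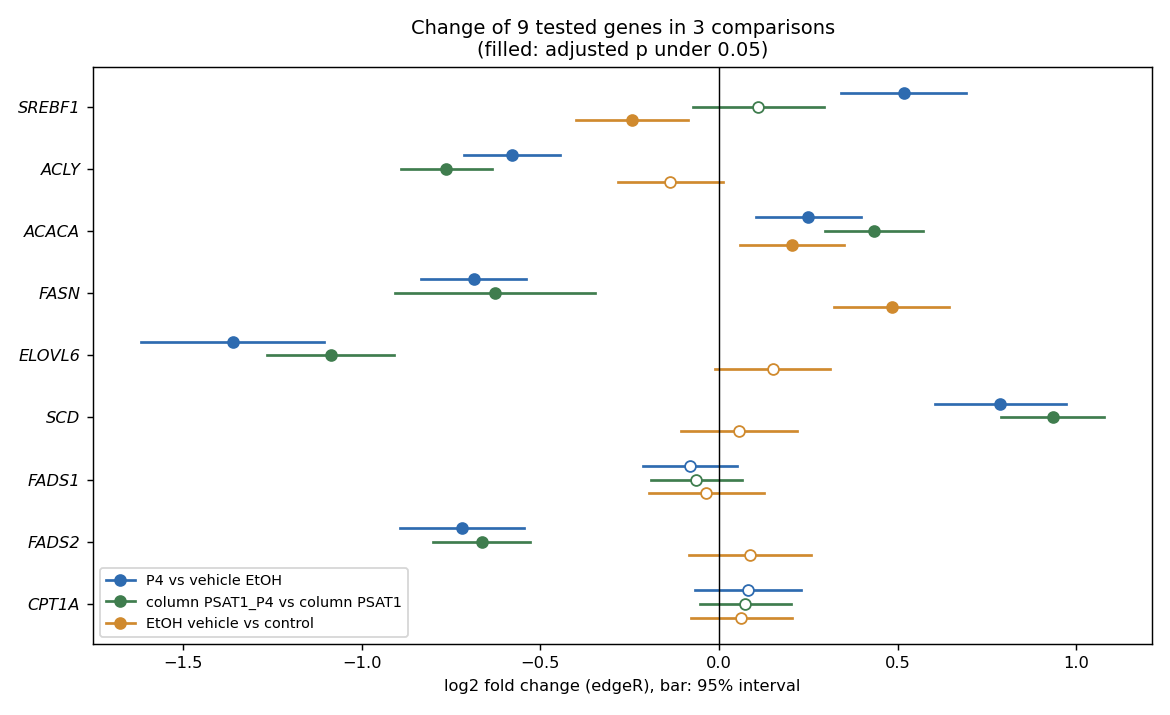
Log2 fold change of the 9 tested members (horizontal axis; bars are 95% intervals) in 3 comparisons, marked by colour; filled points had an adjusted p under 0.05. ACLY, FASN, ELOVL6, SCD, FADS2 and ACACA each lie on the same side of 0 for P4 against vehicle EtOH and the column contrast. For vehicle EtOH against control, FASN lies on the other side, as do ELOVL6 and FADS2, which were not called there. SREBF1 also lies on opposite sides for P4 against vehicle EtOH and for vehicle EtOH against control. Directions of the column contrast hold for the column names.

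In the column PSAT1_P4 libraries 6 members were called against the column PSAT1 libraries, ACACA and SCD higher and ACLY, FASN, ELOVL6 and FADS2 lower. Of 16586 genes, 62.3% were called here, 30.7% higher and 31.6% lower. By the sample titles, which contradict the column names, each of these directions is reversed. Beside this, PGR was at 97.7 to 127 CPM in the column PSAT1 and 18.3 to 20.9 CPM in the column PSAT1_P4 libraries (102 to 117 in control, 18.4 to 27.6 with P4). ABCG1, a cholesterol exporter, was at 0.33 to 1.12 and 23.5 to 30.2 CPM (0.49 to 1.04 in control, 20.01 to 30.9 with P4). SCD was at 536, 583 and 535 CPM in the column PSAT1 and at 965, 1074 and 1176 CPM in the column PSAT1_P4 libraries, a log2 fold change of 0.93 ± 0.069 (adjusted p = 6.6e-10). ELOVL6 was at 74.6, 77.8 and 77.0 against 42.3, 33.6 and 34.0 CPM, a log2 fold change of -1.09 ± 0.085 (adjusted p = 1.4e-09). Both genes were apart in all libraries, in the same order by column name as between vehicle EtOH and P4.

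ACLY, at 216, 197 and 211 against 123, 125 and 126 CPM, had a log2 fold change of -0.76 ± 0.061 (adjusted p = 1.8e-09). FADS2 had -0.66 ± 0.065 (adjusted p = 3.7e-08) and ACACA 0.43 ± 0.065 (adjusted p = 1e-05). FASN was at 356, 462 and 496 CPM in the column PSAT1 libraries and 268, 323 and 276 CPM in the column PSAT1_P4 libraries, and its log2 fold change was -0.63 ± 0.12 (adjusted p = 0.0018). Replicate 1 of column PSAT1 was low for FASN and also for SREBF1, the regulator, which had 74.4, 89.4 and 96.0 CPM there and 85.7, 100.0 and 100.1 CPM in the column PSAT1_P4 libraries. For SREBF1 the groups overlapped, and its log2 fold change of 0.11 (95% interval -0.07 to 0.29) did not pass (adjusted p = 0.29). FADS1 (-0.06, interval -0.19 to 0.06) and CPT1A (0.07, interval -0.05 to 0.20) did not pass either, though FADS1 was called under upper-quartile scaling (-0.16, adjusted p = 0.025).

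The members called in both contrasts, which have no library in common, numbered 6, and all 6 had the same sign by column name. Among all genes called in both, 99.4% of 7392 did so, so the shared sign is not particular to the members. The difference between these contrasts (column contrast minus P4 contrast) was called for 0 of 9 members, and for 1.41% of 17363 genes. SREBF1 came nearest, with a difference of -0.40 ± 0.13 (unadjusted p = 0.0054, adjusted p = 0.13). Without the low-count filter its difference was -0.45 with an adjusted p of 0.013 and thus called. This difference, too, is taken by the column names. The P4 contrast has the ethanol vehicle as its reference and the column contrast does not, and the part of this in the difference was not tested.

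Between the column PSAT1 libraries and untreated control no member and no gene was called (0.0% of 17214; 1004 genes at an unadjusted p under 0.05, 0 by DESeq2). The members ranged from -0.11 to 0.33 on the log2 scale, the highest being FASN (95% interval 0.09 to 0.56, adjusted p = 0.84). SREBF1 was 0.15 (interval -0.03 to 0.33). Between the column PSAT1_P4 libraries and the Nap P4 libraries none was called either (0.0% of 15621; 199 at an unadjusted p under 0.05, 0 by DESeq2). There the members ranged from -0.11 to 0.03, all within intervals of -0.29 to 0.31.

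The rest of the pathway was followed with a list of 106 further genes in 7 roles, of which 92 passed the low-count filter in the main comparison. With P4 against vehicle EtOH 59 were called, 23 higher and 36 lower, against 53.0% of all genes, with a median log2 fold change of -0.12. In the account of these genes, values with ± are log2 fold changes with their SE. Among 16 regulators 9 were called, 6 higher and 3 lower. PPARG, a nuclear receptor that drives lipid storage, rose from 2.36 to 4.19 CPM with vehicle EtOH to 12.5 to 18.7 CPM with P4 (log2 fold change 2.30 ± 0.22, adjusted p = 3.3e-06). MID1IP1, a protein that activates acetyl-CoA carboxylase, rose by 0.58 ± 0.080. RXRA, the partner receptor of PPARs and LXRs, changed by -0.75 ± 0.093, and USF1, an E-box factor, by -0.31 ± 0.088, a call lost without vehicle EtOH replicate 2 (adjusted p = 0.075). With untreated control as the reference, 6 of the genes named here and further on kept their call and direction but moved by over 1.5 times: MID1IP1 to 0.29, RXRA to -0.42, USF1 to -0.52, ACSS2 to 0.27, ACSL3 to 0.29 and CPT2 to -1.41.

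In acetyl-CoA supply and synthesis 6 of 8 genes were called, 3 in each direction, beside 53.0% of all genes. ME1, the cytosolic malic enzyme that supplies NADPH, was at 58.3 to 64.0 CPM with vehicle EtOH and 154 to 181 CPM with P4 (1.43 ± 0.077 on the log2 scale, adjusted p = 3.9e-08). ACSS2, which makes acetyl-CoA from acetate, rose by 0.44 ± 0.084. CBR4 and MCAT, parts of mitochondrial fatty acid synthesis, had log2 changes of -0.87 ± 0.12 and -0.64 ± 0.14. Of 13 elongation and desaturation genes 8 were called, 4 in each direction. FADS3 (0.85 ± 0.10) and ELOVL7 (0.47 ± 0.070) rose and ELOVL1 (-0.72 ± 0.088) fell. ELOVL3 was also called lower (adjusted p = 0.00021), from 5 to 14 reads per vehicle library and 1 to 2 per P4 library, too few for a fold change.

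Uptake and activation had 4 of 8 tested genes called. ACSL3, an acyl-CoA synthetase of lipid droplets, rose by 0.53 ± 0.066, and the transporter SLC27A4 (-0.83 ± 0.11) and the thioesterase ACOT7 (-0.95 ± 0.13) fell. Among the 25 oxidation genes 16 were called, 13 of them lower and 3 higher, and the median log2 fold change was -0.28, beside 53.0% of all genes called, 26.5% lower and 26.6% higher, and a median of -0.01. CPT2, the inner-membrane partner of CPT1A, went from 28.8 to 31.4 CPM with vehicle EtOH to 12.8 to 20.3 CPM with P4 (-0.87 ± 0.14, adjusted p = 0.00022). ETFB, an electron carrier, had -0.89 ± 0.14. PPARGC1A, a coactivator of mitochondrial genes, moved the other way, from 13.9 to 16.7 up to 49.7 to 54.8 CPM (1.77 ± 0.095, adjusted p = 3.9e-08). HADHB, a subunit of the trifunctional protein, rose by 0.34 ± 0.067 over vehicle EtOH, but differed by only 0.02 from untreated control (adjusted p = 0.85). With vehicle EtOH against control, 7 of the 25 oxidation genes were called lower and 0 higher, beside 10.7% and 11.9% of all genes.

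Of 11 tested genes of triglyceride synthesis 8 were called, 3 higher and 5 lower, beside 53.0% of all genes (26.6% higher, 26.5% lower). GPAT3, an acyltransferase of the opening step, rose from 10.2 to 11.4 CPM to 24.4 to 27.6 CPM (1.23 ± 0.11, adjusted p = 1.7e-06), and LPIN1, a phosphatidate phosphatase, rose by 0.76 ± 0.097. GPAT4 (-0.42 ± 0.072) and AGPAT2 (-0.95 ± 0.11) fell. Of 11 tested lipid droplet and lipolysis genes 8 were called, again 3 higher and 5 lower. PLIN3, a perilipin found in most cells, fell from 30.0 to 32.3 CPM to 14.1 to 15.8 CPM (-1.10 ± 0.098, adjusted p = 2.3e-06). PLIN4, another perilipin, rose from 1.92 to 3.47 CPM to 6.87 to 7.50 CPM (1.17 ± 0.20). PNPLA2, the adipose triglyceride lipase, rose by 0.81 ± 0.12 and PNPLA3 fell by 0.82 ± 0.13.

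**Figure D3:**
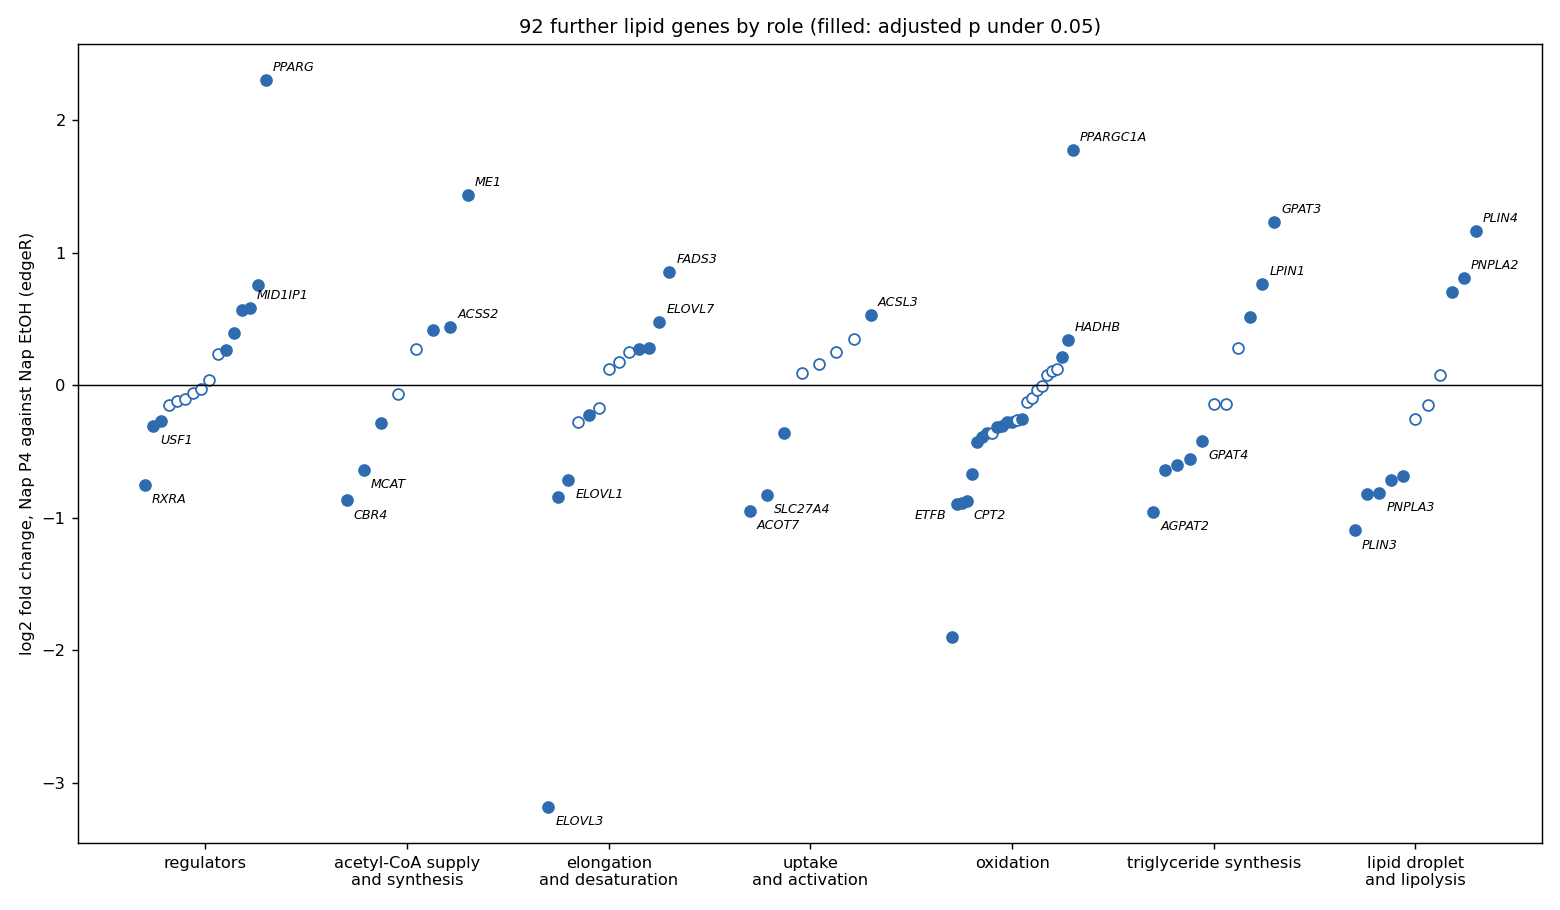
Log2 fold change of P4 against vehicle EtOH (vertical axis) for the 92 tested genes of the list by role (horizontal axis), sorted within a role; filled points had an adjusted p under 0.05. PPARG, PPARGC1A and ME1 lie highest, and 13 of the 16 called oxidation genes lie below 0; ELOVL3 rests on 1 to 14 reads a library.

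By column name, 67 of 92 tested genes of the list were called between the column PSAT1_P4 and column PSAT1 libraries, 29 higher and 38 lower, beside 62.3% of all genes (30.7% and 31.6%). The genes called in both contrasts numbered 52 and had the same sign in each, as did 99.4% of all genes called in both. PPARG had 3.32, ME1 1.57, PPARGC1A 1.71, CPT2 -1.30 and PLIN3 -1.29 on the log2 scale there. Vehicle EtOH against control called 19 of 92 (7 higher, 12 lower), beside 22.6% of all genes, and Nap against control, column PSAT1 against control and column PSAT1_P4 against P4 called 0. As a check of the neighbouring sterol arms, ABCA1, a cholesterol exporter induced by LXR, was at 0.81 to 1.11 CPM with vehicle EtOH and at 14.5 to 29.3 CPM with P4 (log2 fold change 4.51 ± 0.32, adjusted p = 6e-07). The size of this change rests on 5 to 15 reads per vehicle EtOH library. Untreated control was at 1.34 to 2.55 CPM, and vehicle EtOH was called lower than control (-1.05, adjusted p = 0.023). ABCG1, another LXR target, was at 0.16 to 0.77 CPM with vehicle EtOH. HMGCS1, an SREBP-2 target of cholesterol synthesis, fell (-0.46 ± 0.082, adjusted p = 0.00047).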

How the data were processed

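RNA-seq was analysed for 17 libraries of Ishikawa cells in 6 groups. The authors prepared stranded total-RNA libraries, trimmed reads with Cutadapt, filtered by quality, aligned uniquely with Subread, and deposited whole-number read counts per gene (featureCounts, GENCODE 31), not normalized. Tool versions and the strand setting are not given in the sources used here. The number of table columns not used was 0.

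From the deposited counts, genes were kept by filterByExpr with a minimum count of 10, scaled by TMM and tested in edgeR 4.0.16 (R 4.3.3) by its robust quasi-likelihood test, fitting only the groups compared. The p-values were adjusted by Benjamini-Hochberg over all genes tested, calls are at 0.05, and intervals are 95%. CPM used TMM factors of all 17 libraries, and RPKM the GENCODE 29 exon length. GENCODE 29 named 58542 of 60662 genes by ID, 2099 more came from a list of names, and 21 had none. Promoter windows came from RefSeq (GRCh38.p14) and tables from Python 3.11.15. On simulated counts for P4 against vehicle EtOH with a dispersion of 0.01 (16431 genes), 89 of 100 genes changed by 1 on the log2 scale were called. So were 100 of 100 changed by 2, and 11 of 16231 unchanged. The simulation gave all genes the same dispersion (0.00635 was the common estimate in the data) and changed few genes, in balanced directions. It does not test scaling or false calls where 53.0% of genes are called, nor power at log2 changes under 1.

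The members, the list of 106 genes and the markers were chosen with earlier results of these data known. Named from the list were, per role and direction, the 2 called genes of smallest adjusted p with P4 against vehicle EtOH. Groups follow the labels, and the 6 PSAT1 libraries follow their column names. The labels call replicates biological, and no replicates matched within sampling noise. Replicate numbers were not taken as a pairing, since in no comparison with 3 pairs did every same-numbered pair correlate above 0.1 in its deviations from group means. Alternatives were DESeq2 1.42.0, RLE and upper-quartile scaling, other filters, all libraries in one fit, a replicate block, leaving out the 50 highest genes, each library left out, and other reference groups.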

Additional observations from a re-analysis of the deposited data

Results flagged for a closer look

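A test of the difference between the P4 contrasts called 0 of 9 tested members and 1 of 94 tested genes of the list of further genes. Of all 17363 genes it called 1.41%. The gene called from the list was ELOVL7, an elongase. Its log2 fold change was 0.47 ± 0.070 with P4 against vehicle EtOH (52.5, 53.9 and 53.9 CPM against 71.8, 76.1 and 77.2) and 0.89 ± 0.069 between the column PSAT1_P4 and column PSAT1 libraries (39.9, 41.9 and 42.7 against 76.8, 77.5 and 80.2 CPM). The first contrast has the ethanol vehicle as its reference and the second does not. With P4 against untreated control the log2 fold change of ELOVL7 was 0.68, and against Nap it was 0.69. The part of the reference in the difference was not tested. Between the vehicle EtOH and column contrasts the difference was 0.422 on the log2 scale (SE 0.093, edgeR adjusted p = 0.026, n = 3 in each of 4 groups). The call was lost without the low-count filter (adjusted p = 0.10) and when 8 of the 12 libraries were left out in turn (adjusted p 0.051 to 0.093), among them vehicle EtOH replicates 2 and 3, P4 replicate 3 and every column PSAT1 library. It holds for the column names, and the sample titles would reverse the second contrast.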

How the results depend on the processing

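The 7 called members of the P4 comparison stayed called with each library left out, and under DESeq2, other scalings and filters, all libraries in one fit and the replicate block, except that SCD is among the 50 genes of highest count and was not tested where these were left out. The same alternatives kept the 6 calls of the column contrast. FASN with P4 was -0.21 against untreated control and -0.15 against Nap, and neither passed. CPT1A, uncalled, changed sign under upper-quartile scaling to -0.0054 with P4 and -0.0247 in the column contrast, and FADS1 was called there, at -0.17 and -0.16. In vehicle EtOH against control, uncalled SCD ran from -0.0144 (without control replicate 1) to 0.1044 (without control replicate 2) and uncalled FADS1 from -0.1112 to 0.0457 (without the same libraries).

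Where no gene was called, other settings gave few. Nap against control gave 1 gene with DESeq2, 3 without the filter, 1 with all 17 libraries and 42 with the replicate block. Column PSAT1 against control gave 14 without the filter, 29 with the block and 2 with Nap as the reference, and column PSAT1_P4 against P4 gave 1 without the filter and 1 with the block. Without the filter, the difference between contrasts was called for 454 genes and 1 member, SREBF1. No member was called in the others.

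Replicate numbers were not taken as a pairing. Correlations of same-numbered libraries ran from -0.0417 to 0.0476 with P4 against vehicle EtOH, from -0.0345 to 0.306 for column PSAT1_P4 against P4 and from -0.062 to 0.176 for column PSAT1 against control, and for Nap against control, with only 2 pairs, from 0.247 to 0.315. With P4 against vehicle EtOH the replicate block called 8934 genes and the same number of members, 7. The block took the call of ACACA in vehicle EtOH against control (adjusted p = 0.051).

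Leaving out 1 library gave 7083 to 9953 genes with P4, 1908 to 3995 genes and 1 to 4 members for vehicle EtOH, 0 to 5 for Nap, 9430 to 10189 for the column contrast, 0 to 5 for column PSAT1 against control, 0 to 1 for column PSAT1_P4 against P4, and 86 to 717 for the difference, with 717 without P4 replicate 2. Only 1 member, FASN, was called for vehicle EtOH without control replicate 1, vehicle EtOH replicate 2 or vehicle EtOH replicate 3. PLIN2 had too few reads to be tested, and ELOVL3 too few for a fold change.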
